A study of Rattus norvegicus with 16 samples.

Results

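Smyd1, Smyd2 and Mss51 are the 3 genes described here, all of which encode proteins with a MYND domain, a zinc-binding fold that binds other proteins. They were taken as the probe sets that the array annotation names with 1 of these symbols, which gave 1 probe set each, of the 10416 genes tested in all. Smyd2 and Mss51 were selected on their measured differences between extraocular muscle (EOM) and the limb muscle tibialis anterior (TA), being named among the largest falls away from the neuromuscular junction and at it, so those differences are given as a description with no test. Smyd1, the muscle-restricted relative of Smyd2, was set beside them and is treated in the same way. All 3 probe sets passed the filter on low values, an intensity above the median of the array in at least 4 arrays. Smyd2 and Mss51 passed it through the TA arrays, where each lay above the median in 8 of 8, against 3 of 8 EOM arrays for each.

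The study measured RNA from 4 rats on 16 arrays, 4 arrays in each of 4 groups. The EOM_synapse arrays held neuromuscular junctions cut by laser from the rectus muscles that move the eye, and the EOM_fiber arrays held fibre regions of the same muscles without junctions. The TA_synapse and TA_fiber arrays held the same regions of TA. About 1000 junctions per muscle, found by acetylcholinesterase stain on 10 µm sections, and a like amount of non-synaptic tissue were captured. The labels used here name no treatment, genotype, strain, sex or age of the rats. The 4 recti were frozen with the eye, and a captured junction holds the fibre beneath it, the nerve ending and its Schwann cells. The values are deposited intensities on a linear scale, with array medians from 33.4 to 57.04, and the number of arrays limits the precision. Levels given as log2 are quantile-normalized log2(intensity + 16), differences are on that scale with their standard error (SE), and a gene was taken to differ where limma's adjusted p was under 0.05.

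SMYD proteins carry a SET domain, which transfers methyl groups to lysines, split by the MYND domain. Smyd2 methylates the chaperone HSP90 and, with it, binds the elastic part of titin in the sarcomere, and Smyd1 is restricted to striated muscle, where zebrafish and mice need it to build myofibrils and the heart. Mss51, also called Zmynd17, lies at the mitochondria of skeletal muscle, is most abundant in fast glycolytic muscle of mice, falls when cultured muscle cells are given myostatin or TGF-β1, and takes its name from a yeast activator of cytochrome c oxidase subunit I translation.

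The sequences before the start sites of these genes are shown for the following reason. Smyd2 and Mss51 lay near or below the array median in EOM and far above it in TA, while Smyd1 lay above it in both muscles. Each is the RefSeq promoter of assembly GRCr8, 250 bases before to 50 bases after the annotated start, 5′ to 3′ on the strand of the gene, and capitals mark every match on either strand to the E-box CANNTG, the box TATAAA or the GC box GGGCGG. The Smyd2 window is chr13:103997725-103998024 on the minus strand, the Mss51 window chr15:3856494-3856793 on the plus strand and the Smyd1 window chr4:104811223-104811522 on the minus strand.
Smyd2: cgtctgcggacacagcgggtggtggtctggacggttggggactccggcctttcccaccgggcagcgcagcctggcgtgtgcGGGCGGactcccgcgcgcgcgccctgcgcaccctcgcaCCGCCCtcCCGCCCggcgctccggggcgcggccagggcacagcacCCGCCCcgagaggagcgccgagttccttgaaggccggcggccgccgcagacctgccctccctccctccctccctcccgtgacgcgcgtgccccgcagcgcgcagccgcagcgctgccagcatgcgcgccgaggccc
Mss51: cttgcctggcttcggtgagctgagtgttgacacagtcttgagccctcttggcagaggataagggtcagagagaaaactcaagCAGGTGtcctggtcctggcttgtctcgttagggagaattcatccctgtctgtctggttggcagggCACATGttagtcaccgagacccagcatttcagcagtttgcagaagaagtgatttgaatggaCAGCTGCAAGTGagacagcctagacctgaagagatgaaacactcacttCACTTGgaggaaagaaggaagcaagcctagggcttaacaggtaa
Smyd1: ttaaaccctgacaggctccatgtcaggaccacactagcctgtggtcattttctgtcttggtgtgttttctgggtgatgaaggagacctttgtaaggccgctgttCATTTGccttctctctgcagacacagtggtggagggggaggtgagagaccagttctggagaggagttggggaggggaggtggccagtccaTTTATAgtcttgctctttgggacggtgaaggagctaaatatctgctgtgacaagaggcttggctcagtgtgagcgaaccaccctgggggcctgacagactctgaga
The Smyd2 window had a GC content of 78.7% and 44 CpG dinucleotides, more than 98.0% of 27456 rat promoters, whose medians were 52.3% and 7. It held 4 GC boxes, which 34.7% of promoters hold at least once, and no E-box. The Mss51 window had a GC content of 50.3%, 3 CpG dinucleotides and 5 E-boxes, a motif found in 71.7% of promoters. A pair of these, CAGCTG and CAAGTG, lay side by side from base -42, counted from the start site, and none overlapped. The annotated Mss51 start lies at base 3856744, inside the gene's span of 3855094 to 3868614, so the annotated gene also extends upstream of this window. The Smyd1 window had a GC content of 53.3%, 3 CpG dinucleotides, 1 E-box and 1 TATAAA box, which 14.3% of promoters hold. The binding motif of MEF2, in 3.37% of promoters, and the CArG box of serum response factor, in 1.64%, had no match in any of the 3 windows. Each match is a stretch of letters and no measured binding.

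Smyd2 lay near or below the array median in EOM and far above it in every TA array. Away from the junction, the deposited intensity of Smyd2 in rats 15, 25, 27 and 29 was 133, 10.8, 70.2 and 23.0 in EOM_fiber, against 2442, 2019.9, 1772 and 1831 in TA_fiber. At the junction it was 21.7, 36.2, 43.4 and 7.27 in EOM_synapse, against 1159, 1057, 659 and 1411 in TA_synapse. The highest EOM array, that of rat 15 in EOM_fiber, lay below the lowest TA array, that of rat 27 in TA_synapse, so the muscles did not overlap. The mean log2 level was 5.85 ± 1.10 in EOM_fiber against 10.84 ± 0.22 in TA_fiber, and 5.35 ± 0.65 in EOM_synapse against 10.03 ± 0.43 in TA_synapse (SD, n = 4 each). The difference EOM minus TA was -4.99 ± 0.43 away from the junction, or 31.7-fold, and -4.68 ± 0.43 at the junction, or 25.6-fold. Smyd2 was lower in EOM in 4 of 4 rats in each region. Because Smyd2 was selected on these differences, the separation of the muscles is only a description. How many of all genes were separated in this way was not counted.

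Mss51 had the same order of muscles, with a wide spread between TA fibre arrays. In fibre away from the junction, the deposited intensity of Mss51 in rats 15, 25, 27 and 29 was 5.005, 75.1, 39.3 and 45.8 in EOM_fiber, against 455, 1979.5, 788 and 363 in TA_fiber. At the junction it was 44.2, 36.6, 61.8 and 42.0 in EOM_synapse, against 964, 2483, 1817 and 2166 in TA_synapse. The highest EOM array again lay below the lowest TA array, and rat 25 had the highest intensity in each region of TA. The mean log2 level was 5.58 ± 0.93 in EOM_fiber against 9.50 ± 1.02 in TA_fiber, and 5.94 ± 0.29 in EOM_synapse against 10.76 ± 0.59 in TA_synapse (SD, n = 4 each). The difference EOM minus TA was -3.91 ± 0.38 away from the junction, or 15.1-fold, and -4.82 ± 0.38 at the junction, or 28.2-fold. Mss51 was lower in EOM in 4 of 4 rats in each region. It too was selected on these differences, and the share of all genes with such a separation was not counted.

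Smyd1 lay above the array median in every group, and its EOM means were not below its TA means. In the fibre, the deposited intensity of Smyd1 in rats 15, 25, 27 and 29 was 487, 349, 635 and 338 in EOM_fiber, against 219, 223, 324 and 263 in TA_fiber. At the junction it was 221, 196, 254 and 288 in EOM_synapse, against 216, 174, 181 and 165 in TA_synapse. It lay above the array median in 16 of 16 arrays. The mean log2 level was 8.84 ± 0.44 in EOM_fiber against 8.16 ± 0.24 in TA_fiber, and 7.89 ± 0.23 in EOM_synapse against 7.65 ± 0.14 in TA_synapse (SD, n = 4 each). The difference EOM minus TA was 0.68 ± 0.21 away from the junction, positive in 4 of 4 rats, and 0.24 ± 0.21 at the junction, positive in 3 of 4. The normalized values of the muscles overlapped in each region, although the deposited intensities of the fibre arrays did not.

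**Figure D1:**
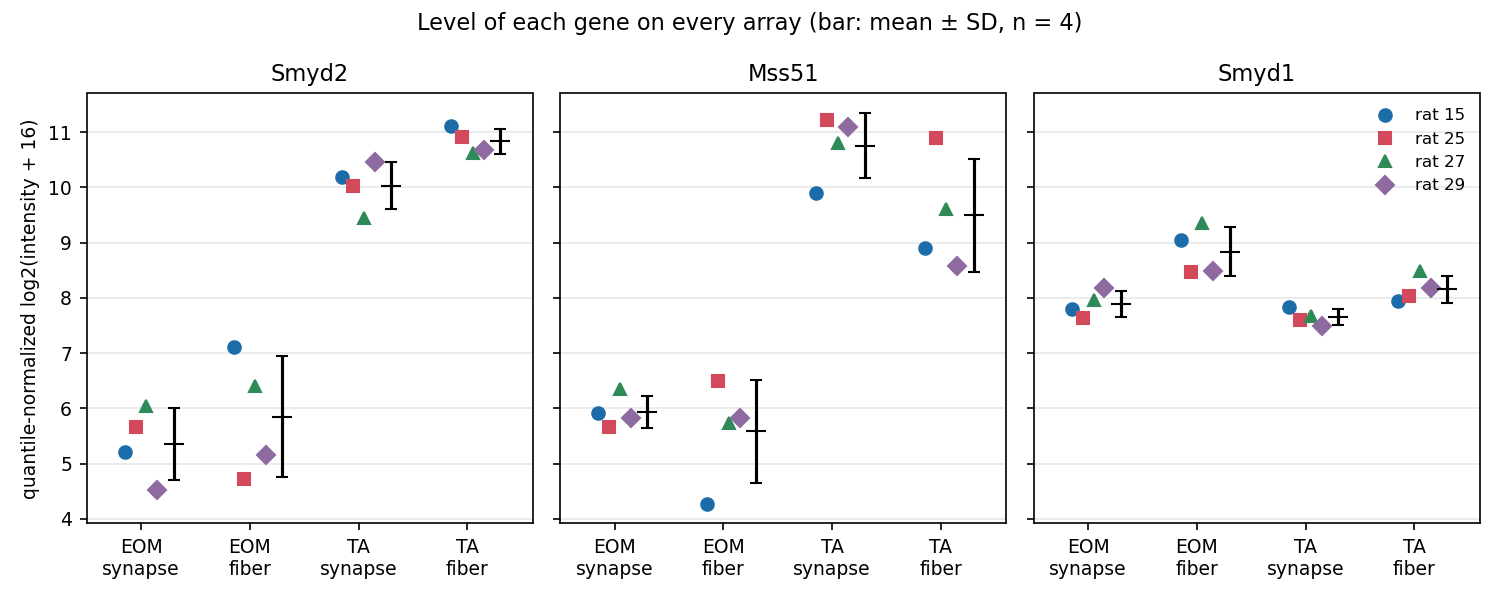
Normalized log2(intensity + 16) of Smyd2, Mss51 and Smyd1 (1 panel each) in the 4 groups, with a point for each of 4 rats and bars for the mean ± SD. Every EOM point of Smyd2 and Mss51, which were selected on the difference between the muscles, lies below every TA point. The Smyd1 groups of EOM and TA overlap.

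The EOM intensities of Smyd2 (7.27 to 133) and Mss51 (5.005 to 75.1) lay on both sides of the EOM array medians (36.0 to 57.04), some far below them. How far these genes fell therefore depends on the constant added before taking logs. With 1 in place of 16, the differences EOM minus TA of Smyd2 were -5.59 away from the junction and -5.46 at it, and with 64 they were -4.07 and -3.60. Those of Mss51 were -4.72 and -5.22 with 1, and -2.96 and -4.02 with 64. No call of presence or absence came with the intensities, so a level near or below the array median is not separable from background here. In captured tissue, fewer cells of a type and less RNA per cell cannot be told apart.

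The label of the tissue was checked against defining markers, as the summed intensity over each list. All 6 muscle fibre markers were measured, with sums of 104439 to 144895 in EOM_fiber against 138972 to 261885 in TA_fiber, and 58560 to 89060 in EOM_synapse against 109401 to 161518 in TA_synapse. Of these markers 1 of 6 was lower in EOM away from the junction (Acta1, skeletal actin, -0.69 ± 0.18, lost without rat 15 of EOM_fiber or rat 15 or 27 of TA_fiber, adjusted p of 0.0539 to 0.0546), and 2 of 6 were lower at it (Acta1, -1.11 ± 0.18, and Des, -1.14 ± 0.29, the second lost without rat 15 or 25 of EOM_synapse or rat 29 of TA_synapse). Of all genes, 7.15% were lower in EOM away from the junction and 8.61% at it. The 6 markers of the postsynaptic region summed to 11800.5 to 12669 in EOM_synapse against 759 to 1315 in EOM_fiber. In TA they summed to 8435 to 12112 in TA_synapse against 108 to 219 in TA_fiber. At the junction 6 of 6 were higher in each muscle, against 5.62% of all genes in EOM and 6.7% in TA. Some markers of other cells were higher in EOM_fiber than in TA_fiber, where 8.4% of all genes were higher. These markers were 5 of 5 of fibroblasts (sums of 2889 to 13403 against 999 to 5066), 3 of 4 of macrophages (476 to 1365 against 126 to 301) and 2 of 4 measured of Schwann cells (1608 to 2404 against 280 to 655). Of 3 measured endothelial markers 1 was higher, Vwf, by 1.21 (limma adjusted p = 0.02), lost without rat 25 of EOM_fiber or rat 25 or 27 of TA_fiber. Schwann cell sums were 6284 to 10945 in EOM_synapse against 3072 to 4982 in TA_synapse. Endothelial sums were 688 to 1357 in EOM_fiber against 562 to 1076 in TA_fiber, and 491 to 1038 in EOM_synapse against 400 to 625 in TA_synapse. The part of these other cells in the values of Smyd1, Smyd2 and Mss51 was not tested.

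The junction was next set against the fibre within each muscle, a contrast that did not choose the genes. Of all 10416 genes, 10.1% differed between EOM_synapse and EOM_fiber and 10.2% between TA_synapse and TA_fiber. Of the 3 genes, Smyd1 was lower at the EOM junction and none passed limma's test in TA, where Smyd1 and Mss51 had an unadjusted p under 0.05. Smyd1 differed by -0.95 ± 0.21 in EOM (limma adjusted p = 0.0103, 95% confidence interval -1.39 to -0.50), lower in 4 of 4 rats. This call was lost without rat 15 (adjusted p = 0.0763), without rat 27 (0.0814) and when arrays were centred on a common median in place of quantile normalization (-0.72, adjusted p = 0.133). In TA, Smyd1 differed by -0.51 ± 0.21 (limma adjusted p = 0.148), with lower values at the junction in 4 of 4 rats. How many of all genes had 4 of 4 rats on 1 side was not counted. The share of the tested genes that were lower was 4.51% in EOM and 3.53% in TA. The summed intensities of the muscle fibre markers were also lower at the EOM junction than in the EOM fibre. The median of the log2 differences of the 6 marker genes was -0.44, with 0 of 6 past limma's test (3 lower at an unadjusted p under 0.05). The part of these markers in the value of Smyd1 was not tested.

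Mss51 lay on the other side of 0 in TA, where the difference of TA_synapse minus TA_fiber was 1.26 ± 0.38 (limma adjusted p = 0.0532, 95% confidence interval 0.44 to 2.09). It was 0.999, 0.33, 1.21 and 2.51 in rats 15, 25, 27 and 29, higher at the junction in 4 of 4, and the groups overlapped through the high fibre array of rat 25. The adjusted p ranged from 0.0181 to 0.28 when 1 rat or 1 array was left out. It was under 0.05 in 5 of these 20 settings: without rat 25 (0.0223), rat 15 of EOM_fiber (0.0418), rat 15 of EOM_synapse (0.0426), rat 25 of EOM_synapse (0.0264) or rat 25 of TA_fiber (0.0181). In EOM, Mss51 differed by 0.36 ± 0.38 (limma adjusted p = 0.615, 95% confidence interval -0.47 to 1.18), with higher values at the junction in 2 of 4 rats and a difference of -0.07 without rat 15. Its EOM levels lay near or below the array median in each region, so this difference is not separable from background.

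Smyd2 did not pass the test between regions in either muscle. The difference of EOM_synapse minus EOM_fiber was -0.50 ± 0.43 (limma adjusted p = 0.519, 95% confidence interval -1.42 to 0.43), made of -1.90, 0.93, -0.38 and -0.64 in rats 15, 25, 27 and 29. That of TA_synapse minus TA_fiber was -0.80 ± 0.43 (limma adjusted p = 0.289, 95% confidence interval -1.73 to 0.12), with lower values at the junction in 4 of 4 rats. With 64 added before taking logs the TA difference was -0.78 with an adjusted p of 0.0361. The interaction, which is the EOM_synapse minus EOM_fiber difference less the TA_synapse minus TA_fiber difference, passed for 0.922% of all genes, 0.259% above 0 and 0.662% below it. It was -0.44 ± 0.29 for Smyd1, 0.31 ± 0.61 for Smyd2 and -0.90 ± 0.54 for Mss51, and none of the 3 passed, nor at an unadjusted p under 0.05 (limma adjusted p = 0.641, 0.905 and 0.606). Its 95% confidence interval was -1.06 to 0.19 for Smyd1, -1.002 to 1.62 for Smyd2 and -2.07 to 0.26 for Mss51, so a muscle difference of 2-fold was inside the interval for each. The EOM levels of Smyd2 and Mss51 lay near or below the array median. Their differences between EOM regions, and the interactions that use them, are therefore not separable from background. The interaction is also the EOM minus TA difference at the junction less that away from it. Smyd2 and Mss51 were selected on those differences, so the interaction is no independent test of these genes.

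**Figure D2:**
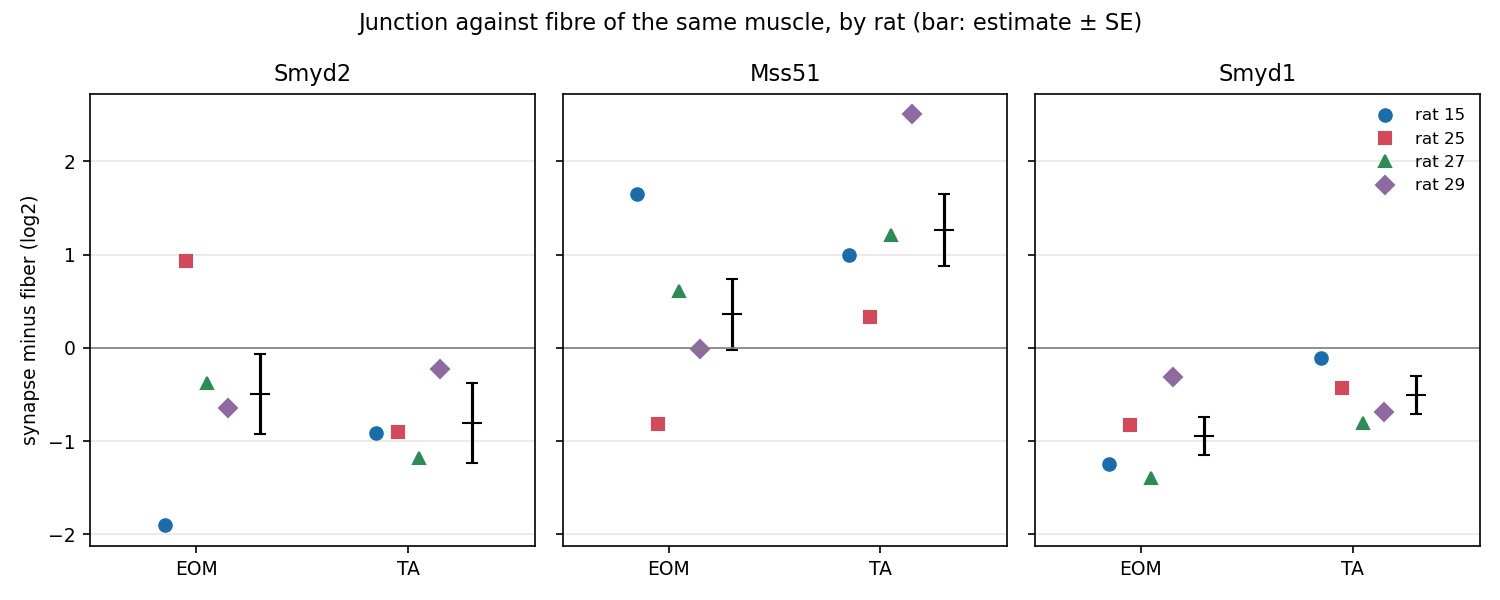
Difference of synapse minus fiber in normalized log2 intensity for each of 4 rats (points), with the fitted difference ± SE (black bars), for Smyd2, Mss51 and Smyd1 (1 panel each) in EOM and in TA. All 4 TA points of Mss51 lie above 0 and all 8 points of Smyd1 lie below 0, while the EOM points of Smyd2 and Mss51 lie on both sides of 0.

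Once the group means were removed, the 3 genes were only weakly related over the 16 arrays. Pearson's r of the deviations was -0.38 for Smyd2 with Mss51, 0.33 for Smyd1 with Smyd2 and -0.31 for Smyd1 with Mss51. The points share rats, captures and array scaling, and the values are a description. The EOM points of Smyd2 and Mss51 lay near or below the array median and are not separable from background.

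The other genes of the MYND family were taken as a list of 19, of which 17 had a named probe set and 14 passed the filter. Zmynd10, Zmynd15 and Tdrd1 lay below the filter, and Ankmy1 and Zmynd12 had no named probe set. Away from the junction, 1 of 14 was higher and 1 of 14 was lower in EOM than in TA, or 7.14% each way, against 8.4% and 7.15% of all genes, and the list's median difference of -0.07 lay beside 0.03 for all genes. At the junction 0 of 14 were higher and 1 of 14 was lower, against 7.82% and 8.61% of all genes (1 and 2 by limma's unadjusted p under 0.05), with a median of 0.02 beside 0.01. All 14 lay between -0.98 and 0.90 in both regions.

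Egln1, the prolyl hydroxylase that marks hypoxia-inducible factor for breakdown, was the gene that was lower in EOM in both regions. Its mean log2 level was 9.19 ± 0.13 in EOM_fiber against 10.17 ± 0.20 in TA_fiber, and 8.77 ± 0.07 in EOM_synapse against 9.75 ± 0.30 in TA_synapse (SD, n = 4 each). The difference was -0.97 ± 0.18 away from the junction (limma adjusted p = 0.00259) and -0.98 ± 0.18 at it (0.00225). It was lower in 4 of 4 rats away from the junction, and it passed the test under every alternative run. A further Egln1 probe set lay below the filter and read 0.31 and 0.09.

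Runx1t1, a corepressor of the ETO family, was higher in EOM_fiber than in TA_fiber by 0.90 ± 0.28 (limma adjusted p = 0.0434), a call lost in 14 of the 16 settings that left out 1 array, all but rat 25 of EOM_synapse and rat 27 of TA_synapse. Its other probe set past the filter read -0.02 and stood for the gene in 8 of the 27 alternatives, in 4 of which the difference turned to between -0.34 and -0.00338 (limma adjusted p of 0.601 to 0.996). These were the settings without rat 25, without rat 25 of EOM_fiber, and without rat 25 or 27 of TA_fiber. Among the SMYD genes, Smyd3 differed by -0.02 away from the junction and -0.59 at it, Smyd4 by 0.17 and 0.56, and Smyd5 by -0.76 and -0.63, and none of these passed the test. Usp19, a deubiquitinase, read -0.47 and -0.33, Pdcd2, which helps assemble the small ribosomal subunit, -0.57 and -0.53, and Zmynd19 -0.64 and -0.44, also short of it. The chromatin readers Zmynd8, with 0.29 and 0.38, and Zmynd11, with -0.12 and 0.33, were above 0 at the junction, short of the test as well. For Zmynd11 this holds for 1 of its 3 probe sets past the filter, as the other two read -0.19 and -0.52 away from the junction and -0.35 and -0.67 at it.

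Between junction and fibre, 0 of 14 passed in EOM by limma and 1 of 14 was lower in TA, against 5.62% higher and 4.51% lower of all genes in EOM and 6.7% higher and 3.53% lower in TA. That gene was Cbfa2t3, a further ETO family corepressor, with 6.51 ± 0.35 in TA_synapse against 7.81 ± 0.62 in TA_fiber (SD, n = 4 each), a difference of -1.30 ± 0.25 (limma adjusted p = 0.00468), which was no longer past the threshold without rat 29. Its 3 other probe sets past the filter read -0.92, -0.54 and -0.82. At an unadjusted p under 0.05, 2 of 14 were lower and 0 higher in each muscle. The list's median difference was -0.12 in EOM, where all genes had -0.04, and -0.21 in TA, where all genes had -0.01.

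**Figure D3:**
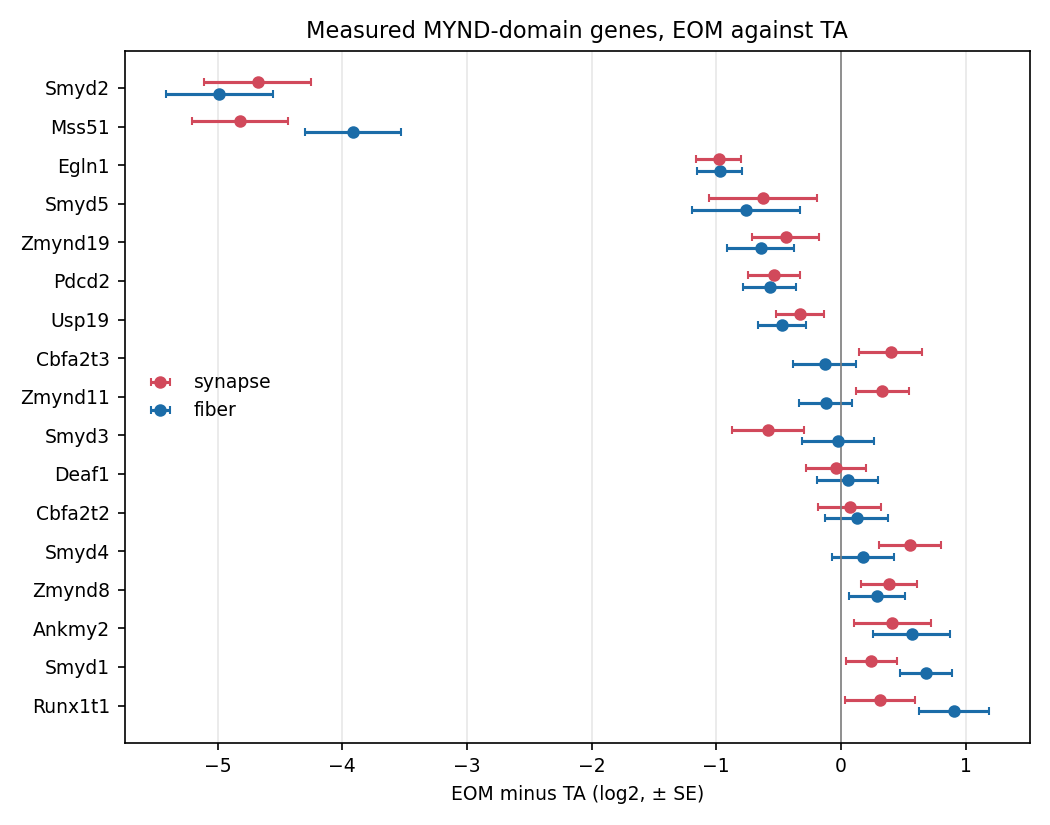
Difference of EOM minus TA in log2 intensity (± SE) for Smyd1, Smyd2, Mss51 and the 14 other tested MYND genes, away from the junction and at it. Smyd2 and Mss51 lie between -4.99 and -3.91, and every other gene lies between -0.98 and 0.90.

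Next came the partners of SMYD proteins and the chaperones of myosin and titin, a list of 24 of which 22 were tested. In EOM away from the junction 4 of 22 were higher than in TA and 1 was lower (18.2% and 4.55%, against 8.4% and 7.15% of all genes), with a median of 0.14 against 0.03 for all genes. The count higher was 1 with median centring and 2 with values as deposited. Bag3, a co-chaperone that clears damaged sarcomere proteins, was higher by 0.77 ± 0.17 (limma adjusted p = 0.00777), and Ky, the kyphoscoliosis peptidase, by 0.74 ± 0.17 (0.00859). Both calls were lost with median centring, that of Bag3 also without rat 25, and that of Ky also with values as deposited and without rat 15 or 29. The small heat shock gene Hspb2 was higher by 1.14 ± 0.29 and Neb, the giant protein of the thin filament, read -0.69 ± 0.18, and each was lost without rat 15 of EOM_fiber or rat 15 or 29 of TA_fiber (adjusted p of 0.0512 to 0.0702). The count of genes higher in EOM fell to 2 without 1 of those 3 arrays. The count lower lay between 0 and 2 without 1 array, moving without rat 15 or 25 of EOM_fiber or rat 15, 25 or 29 of TA_fiber.

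At the junction 3 of 22 were higher in EOM and 1 was lower (13.6% and 4.55%, against 7.82% and 8.61% of all genes), with a median of -0.07 against 0.01. The count higher was 1 with median centring, where Ky and Bag3 were lost, and Ky was also lost with values as deposited. The count lower was 2 with values as deposited and 3 with 64 added before logs. Hspb6, a further small heat shock gene, was higher by 1.21 ± 0.20 (limma adjusted p = 0.00113), Ky by 0.86 ± 0.17 (0.00295) and Bag3 by 0.70 ± 0.17 (0.0128, lost without rat 25, 27 or 29, and 0.0551 without rat 29 of EOM_synapse), while Neb was lower with -0.94 ± 0.18 (0.00326). The count lower rose to as many as 3 without rat 15 or 25 of EOM_fiber, rat 29 of EOM_synapse, rat 25 of TA_fiber or rat 29 of TA_synapse. The partners of the SMYD proteins themselves did not pass the test. Hsp90ab1 differed by 0.09 in both regions, Unc45b, the myosin chaperone that works with Smyd1, by 0.18 and 0.14, Naca, whose muscle form binds Smyd1, by 0.39 and 0.24, and Ttn (titin) by -0.09 and -0.51. Hsp90aa1 and Hspa8 were not tested.

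Where Smyd1 was lower, at the EOM junction against the EOM fibre, 4 of 22 of these genes were lower and 0 were higher by limma (18.2% lower, against 4.51% of all genes, with 9 and 1 at an unadjusted p under 0.05), with a median of -0.43 against -0.04 for all genes. Ankrd1, a stress-induced titin-binding protein, had the largest difference of the list with -2.15 ± 0.41 (limma adjusted p = 0.00461). Its relative Ankrd2 followed with -1.78 ± 0.43 (0.0188), lost without rat 15 or 25 of EOM_fiber or rat 15 or 27 of EOM_synapse. The count was 2 with median centring or a constant of 1. It fell to 1 at its lowest without 1 array and moved without rat 15 or 25 of EOM_fiber or rat 15, 25 or 27 of EOM_synapse. In the same contrast 7 of 14 slow fibre genes and 5 of 14 fast fibre genes were lower (50% and 35.7%, against 4.51% of all genes) and 0 were higher in either list by limma (5.62% of all genes), and at an unadjusted p under 0.05 these were 10 and 8 lower and 1 and 0 higher. With values as deposited the fast fibre count was 8. The slow light chain gene Myl3 read -2.35 ± 0.37 (limma adjusted p = 0.00127) and the fast myosin gene Myh2 -2.22 ± 0.25 (8.68e-05).

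For Mss51, known for its response to myostatin and TGF-β1, the list of that pathway held 22 genes, of which 17 were tested. Mstn (myostatin), Tgfb1 and the receptors Tgfbr2 and Acvr1b were not tested, nor was Ski. Among ligands, Tgfb2 was lower in EOM_synapse than in TA_synapse with -1.46 ± 0.20 (limma adjusted p = 0.000215). Among inhibitors, Fst, which encodes follistatin and binds myostatin, had mean log2 levels of 8.45 ± 0.77 in EOM_fiber against 6.46 ± 0.41 in TA_fiber, and of 10.84 ± 0.34 in EOM_synapse against 6.85 ± 0.74 in TA_synapse (SD, n = 4 each). Fst was higher in EOM by 1.99 ± 0.29 away from the junction (limma adjusted p = 0.000423) and by 3.99 ± 0.29 at it (1.31e-06). Mss51 was selected for being low in EOM, and a link between it and Fst was not tested. Ltbp4, which holds latent TGF-β in the matrix, was higher by 2.25 ± 0.28 (0.000159) and 1.58 ± 0.28 (0.00182). Its relative Ltbp3 was higher away from the junction by 0.86 ± 0.21 (0.0135, lost with median centring, without the 3 arrays of highest median and without rat 25, 27 or 29). Both are matrix genes. Of the fibroblast markers, 5 of 5 were higher in EOM away from the junction and 1 of 5 at it, against 8.4% and 7.82% of all genes. The part of fibroblasts in the values of Ltbp3 and Ltbp4 was not tested.

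Away from the junction 3 of 17 of these genes were higher in EOM and 0 were lower by limma (17.6% higher, against 8.4% higher and 7.15% lower of all genes, with 4 and 3 at an unadjusted p under 0.05), with a median of -0.24 against 0.03 for all genes, and the count was 3 without any 1 array. At the junction 3 were higher and 2 lower (17.6% and 11.8%, against 7.82% and 8.61% of all genes), with a median of -0.13 against 0.01. The third higher gene was Fstl3, a relative of follistatin, with 1.17 ± 0.32 (limma adjusted p = 0.0224). This call was lost without the rat block and without rat 15, 27 or 29 of TA_synapse (0.0551 to 0.0631). Fstl3 fell below the filter, and was not tested, in at least 1 setting that left out 1 array. The second lower gene was Smad2, with -0.60 ± 0.19 (0.0487), lost in 13 of the 16 settings that left out 1 array, all but rat 15 of EOM_fiber, EOM_synapse or TA_synapse. Between junction and fibre, Fst was higher at the EOM junction by 2.39 ± 0.29 (limma adjusted p = 0.000146). The signal carrier Smad3 was lower there with -1.10 ± 0.20 (0.00354) and at the TA junction with -0.77 ± 0.20 (0.0256, with 0.0504 to 0.0838 without any 1 of the TA arrays other than rat 29 of TA_fiber).

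The genes of cytochrome c oxidase, whose yeast translation gave Mss51 its name, had list medians near those of all genes between the muscles and below them between junction and fibre. Of 33 listed, 29 were tested, and away from the junction 2 were higher in EOM and 1 was lower (6.9% and 3.45%, against 8.4% and 7.15% of all genes), with a median of 0.08 against 0.03. At the junction 5 were higher and 1 lower (17.2% and 3.45%, against 7.82% and 8.61% of all genes), with a median of 0.08 against 0.01. The subunit gene Cox8a was higher by 1.78 ± 0.31 away from the junction (limma adjusted p = 0.00169) and by 1.94 ± 0.31 at it (0.000846), and Cox8b by 0.81 ± 0.17 at the junction (0.00574, lost with median centring). The assembly gene Cox19 was lower with -0.86 ± 0.22 and -0.89 ± 0.22, lost without rat 15 of EOM_fiber or TA_fiber in the first contrast and without rat 25 or 29 of EOM_synapse or rat 29 of TA_synapse in the second (adjusted p of 0.0517 to 0.0637). In the fibre regions the count higher was 1 without rat 15 or 25 of EOM_fiber or rat 15, 25 or 27 of TA_fiber. At the junction it was as low as 2 without rat 25 or 29 of EOM_synapse or rat 15, 25 or 29 of TA_synapse, 2 with median centring, and 3 with values as deposited or without the rat block.

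Between junction and fibre, 3 of these 29 genes were lower and 0 higher at the EOM junction by limma (10.3% lower, against 4.51% of all genes), with a median of -0.42 against -0.04 for all genes. At the TA junction 4 were lower and 0 higher (13.8% lower, against 3.53% of all genes), with a median of -0.48 against -0.01. At an unadjusted p under 0.05 these were 9 and 12 lower and 0 higher. Cox8b was lower at the TA junction with -0.996 ± 0.17 (limma adjusted p = 0.00208) and at the EOM junction with -0.61 ± 0.17 (0.0389), the second lost in 10 of the 16 settings that left out 1 array. The EOM count was 0 with median centring, 1 without the rat block and 5 with 64 added before logs. It lay between 0 and 4 without 1 array, moving without rat 25 of EOM_fiber or rat 15, 25 or 29 of EOM_synapse. The TA count was 7 with median centring, 9 with values as deposited, 8 with 64 added before logs and 2 without the rat block. It lay between 2 and 6 without 1 array, moving without rat 15, 27 or 29 of TA_fiber or rat 15 or 29 of TA_synapse.

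Fast glycolytic genes, the setting in which Mss51 is known in mice, were lower in EOM in part. Of 15 tested genes of glycolysis and glycogen, 5 were lower in EOM and 0 higher away from the junction (33.3% lower, against 7.15% of all genes, median -0.35 against 0.03), and 7 were lower and 0 higher at the junction (46.7% lower, against 8.61% of all genes, median -0.56 against 0.01). By limma's unadjusted p under 0.05 these were 6 and 10 lower and 0 higher. Gpd1, glycerol 3-phosphate dehydrogenase, was lower at the junction with -2.14 ± 0.20 (limma adjusted p = 9.1e-06). Phka1, the muscle phosphorylase kinase subunit, was lower with -1.17 ± 0.19 away from the junction (0.00103) and -1.81 ± 0.19 at it (3.04e-05), and Fbp2, muscle fructose bisphosphatase, with -1.39 ± 0.27 (0.00332) and -1.71 ± 0.27 (0.000721). The count was between 5 and 8 at the junction without any 1 array. Away from the junction it was 8 with median centring and 2 without the rat block or without the 3 arrays of highest median. It fell to 2 at its lowest without 1 array and moved without rat 15, 27 or 29 of EOM_fiber, rat 25 or 27 of EOM_synapse, rat 15, 25 or 27 of TA_fiber, or rat 15 or 25 of TA_synapse.

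Of 14 tested fast fibre genes, 2 were lower and 1 higher in EOM away from the junction (14.3% and 7.14%, against 7.15% and 8.4% of all genes), and 4 were lower and 1 higher at the junction (28.6% and 7.14%, against 8.61% and 7.82%), with medians of 0.01 and -0.08 against 0.03 and 0.01. Mybpc2, fast myosin binding protein, was lower with -1.04 ± 0.20 (limma adjusted p = 0.00331) and -2.49 ± 0.20 (2.78e-06), and Actn3, the fast α-actinin, with -0.995 ± 0.20 (0.00454) and -2.17 ± 0.20 (1e-05). Pvalb, the calcium buffer parvalbumin, was higher in EOM_fiber by 1.07 ± 0.21 (0.0035), a call lost without the rat block and with median centring, which also gave 4 lower away from the junction. Of the 14 slow fibre genes, 6 were higher and 3 lower away from the junction (42.9% and 21.4%, against 8.4% and 7.15% of all genes), led by Pln, phospholamban, with 3.18 ± 0.44 (limma adjusted p = 0.000299), and 3 were higher and 3 lower at the junction (21.4% each, against 7.82% and 8.61%), with medians of 0.86 and 0.21.

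The genes whose pattern over the 16 arrays was most like that of Smyd2 were Hoxa10 (Pearson's r = 0.959), Pgm2l1 (0.958), Aven (0.953), Bag1 (0.950) and Sim2 (0.945). Hoxa10, a homeobox gene of limb and trunk, averaged 4.55 ± 0.39 on the log2 scale in EOM_fiber against 9.28 ± 0.11 in TA_fiber, and 4.39 ± 0.44 in EOM_synapse against 9.48 ± 0.68 in TA_synapse (SD, n = 4 each). Its EOM levels lay near the lower end of the scale, so the size of its difference depends on the added constant, and the differences of the other 4 away from the junction lay between -2.51 and -0.96. Those most like Mss51 were Rnf170 (0.950), Eif2s2 (0.945), Zfp180 (0.944), Dpf3 (0.942) and Ccng1 (0.941). Rnf170, a ubiquitin ligase of the endoplasmic reticulum, averaged 7.69 ± 0.26 in EOM_fiber against 8.99 ± 0.34 in TA_fiber, and 7.99 ± 0.25 in EOM_synapse against 9.85 ± 0.41 in TA_synapse. The 5 genes like Mss51 were lower in EOM by smaller amounts, with differences of -1.30 to -0.77 away from the junction and -2.02 to -0.71 at it. The arrays fall into 4 groups, so these values describe the order of the groups and the likeness is no test. The names depend on the measure, since 0 of the 5 genes most like Smyd2 and 2 of the 5 most like Mss51 were named again by Spearman's rho.

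**Figure D4:**
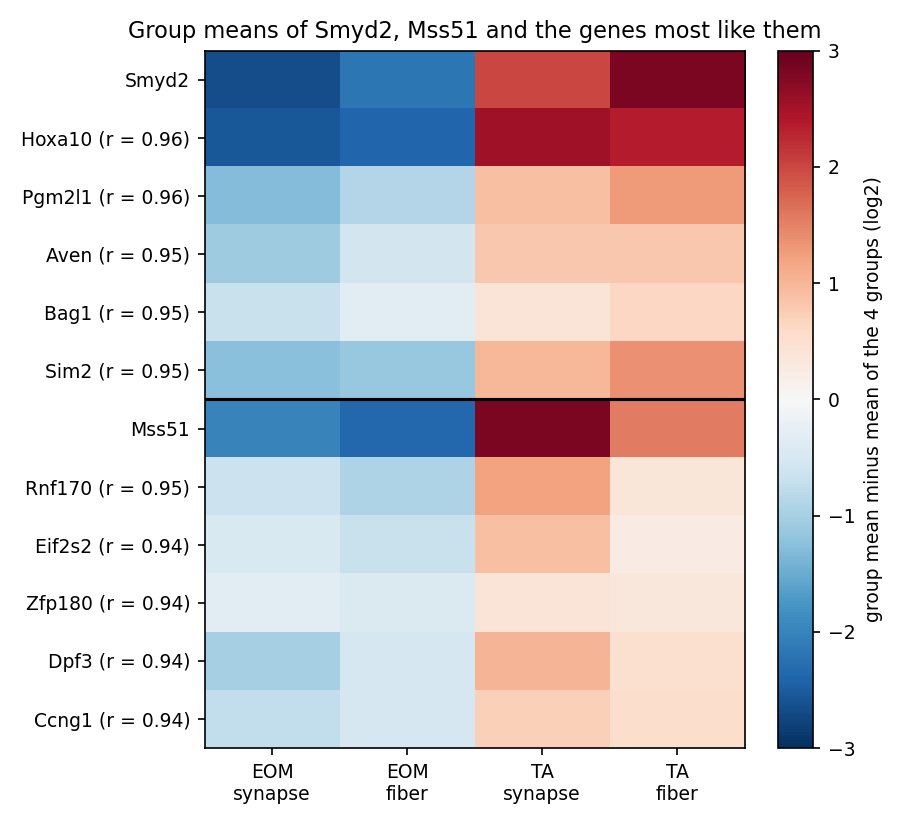
Mean normalized log2 intensity of each of the 4 groups (columns, 4 rats each) minus the mean of the 4 groups, for Smyd2 and Mss51 and for the 5 genes most like each (rows, with Pearson's r over 16 arrays). Every row is lower in the EOM columns than in the TA columns, with the deepest colours for Smyd2, Hoxa10 and Mss51.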

How the data were processed

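The values deposited by the authors are an intensity per probe set on a linear scale, and the trimmed mean (top and bottom 2% left out) was 150.06 to 150.08 on each array. Per the labels' protocols, biotin-labelled RNA was made by 2-cycle amplification, with 600 ng entering the second cycle. The summarising tool was not given in the sources used here. Of 31099 probe sets, 57 were controls and left out, 20826 had 1 gene in the array annotation, 436 several and 9780 none, with symbols updated through RefSeq (GRCr8).

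Array medians spanned 0.56 on the log2 scale, above a limit of 0.5, so log2(intensity + 16) was quantile normalized. Probe sets above the array median on 4 or more arrays were kept, and the one of highest mean stood for each gene (10416 genes). The model, fitted with limma 3.58.1 (R 4.3.3), held the 4 groups and the rat as block, left 9 residual and 4.58 prior degrees of freedom, and p-values were adjusted by Benjamini-Hochberg over all genes per contrast. The model fit alone was tested on simulated data, and the normalization, the filter and the choice of probe set were not tested in this way. The number in each title was taken as the animal: deviations of 24 same-rat array pairs from group means correlated across genes with a mean r of 0.112 (-0.0666 to 0.245, 16 over 0.1), and those of other rats with -0.0374. The value for other rats follows largely from the same-rat value, because deviations were taken from group means. Within groups, arrays correlated with r of 0.867 to 0.949. Nothing shows whether a number also marks a shared processing batch.

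The members and lists were chosen with earlier results of these data known. Named genes are the 3 members, the other MYND genes, up to 4 genes past the threshold per list and contrast, largest first, and the 5 genes most like Smyd2 and Mss51 each. Not all are printed. Alternatives were other normalizations, no filter, other constants, no rat block, and fewer rats or arrays.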

Additional observations from a re-analysis of the deposited data

Results flagged for a closer look

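A single array stood apart from the other 3 of its group, by Dixon's test at the 95% level, in 6 of the 68 groups formed by 17 MYND genes and 4 tissues, where chance flags about 1 in 20 groups. None was a group of Smyd1, Smyd2 or Mss51. Zmynd11 read 12.04 on the log2 scale in rat 27 of TA_fiber against 11.70 to 11.76 in the others, and 11.10 in rat 29 of TA_synapse against 11.96 to 12.09. Ankmy2 read 5.94 in rat 27 of TA_synapse against 7.37 to 7.64, and Cbfa2t2 read 6.49 in the same array against 7.43 to 7.49. Deaf1 read 6.03 in rat 27 of EOM_fiber against 6.67 to 6.73. Smyd4 read 8.44 in rat 29 of EOM_synapse against 8.14 to 8.18.

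The interaction, the difference of synapse minus fiber in EOM less that in TA, passed limma's test for 5 genes of the lists. Among all 10416 genes tested, it passed for 96, or 0.922%, with 0.259% above 0 and 0.662% below 0. It was 2.00 ± 0.40 for Fst (limma adjusted p = 0.0326, lost without 10 of the 16 arrays in turn and without any 1 rat). For Mybpc2 it was -1.45 ± 0.28 (0.0285, lost without 11 of the arrays in turn and without rat 15, 25 or 27). For Gpd1 it was -1.53 ± 0.28 (0.0185, lost without rat 15 or 29 of TA_synapse, without any 1 rat, without the 3 arrays of highest median and with median centring). Among the markers of the tissue it was -2.89 ± 0.45 for Chrna1, the acetylcholine receptor α subunit of the postsynaptic region (0.00698, lost without rat 15, without rat 29 and with a constant of 1), and -1.60 ± 0.24 for Col1a1, a collagen of fibroblasts (0.00528, lost without rat 15, 27 or 29, without the rat block and with median centring).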

How the results depend on the processing

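Over 15 differences of Smyd1, Smyd2 and Mss51 and 27 alternatives, 386 of 405 values kept their direction and their side of the threshold or moved by less than 1 SD. Many of these values could hardly change, since they lay far from the threshold or the array left out was outside the contrast. Without the rat block, no call of a member changed (Smyd1 at the EOM junction -0.95, adjusted p = 0.0143, and Mss51 at the TA junction 1.26, 0.124), and 1383, 1474, 831, 903 and 73 genes passed, in the order EOM against TA at fibre and junction, EOM and TA junction, and interaction. With 64 added before logs, the differences EOM minus TA moved to -2.96 for Mss51 in fibre and to -3.60 for Smyd2 and -4.02 for Mss51 at the junction, and at the TA junction Smyd2 (-0.78) and Mss51 (1.20, adjusted p = 0.00357) passed. Mss51 there also passed with values as deposited (1.27, 0.042) and without the 3 arrays of highest median (1.70, 0.016), and ranged from 0.85 to 1.59 with 1 rat or array left out. Smyd1 at the EOM junction was -0.72 with median centring (0.133) and ranged from -1.15 to -0.80 with 1 left out. Mss51 at the EOM junction, 0.36 in all, turned to -0.0737 without rat 15 and ranged from there to 0.755. The Smyd2 interaction ranged from -0.20 to 0.74 and was below 0 without rat 25 (-0.20), rat 25 of EOM_fiber (-0.11) or rat 27 of TA_synapse (-0.01). The 1620, 1712, 1055, 1066 and 96 genes that passed became 976 to 1717, 947 to 1940, 491 to 1146, 602 to 1210 and 23 to 105 with 1 rat or array left out. Median centring gave 1139 for EOM against TA at the junction, 689 for the EOM junction and 56 for the interaction, which had 46 with a constant of 1 and 218 with 64. With values as deposited, 4 of the 5 genes most like Smyd2 and 2 of those most like Mss51 were named again, and with Spearman's rho 0 and 2. The causes were not tested. Another probe set could not stand for a member, since each had 1. Of 179 calls of listed genes, 62 were lost without some array. Intensity near or below the array median limits the EOM values of Smyd2 and Mss51.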

Other observations

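Of 17 tested regulators of muscle transcription, 1 was higher and 1 lower in EOM than in TA away from the junction (5.88% each, against 8.4% and 7.15% of all genes), and 3 were higher and 4 lower at the junction (17.6% and 23.5%, against 7.82% and 8.61%), with medians of 0.02 and 0.07. Away from the junction the count higher lay between 0 and 3 without 1 array, moving without rat 25 or 27 of EOM_fiber, rat 15 or 27 of EOM_synapse, rat 15 or 25 of TA_fiber or rat 15 or 27 of TA_synapse. It was 0 with median centring and 4 with 64 added before logs. At the junction the count lower was 2 with median centring and between 2 and 5 without 1 array, moving without rat 25 or 27 of EOM_synapse or rat 27 of TA_synapse. Tead1, a factor that binds muscle promoters, was lower in EOM_fiber with -1.12 ± 0.21 (limma adjusted p = 0.00286). Its relative Tead4 was lower in EOM_synapse than in TA_synapse with -2.14 ± 0.28 (0.000178). Ppargc1a, the coactivator PGC-1α of mitochondrial and slow fibre genes, was higher in EOM_synapse by 1.85 ± 0.27 (0.000356). It was also lower at the TA junction than in the TA fibre with -1.32 ± 0.27 (0.00571, lost without rat 29). Myocd, the coactivator of serum response factor in heart and smooth muscle, was higher in EOM by 0.96 ± 0.25 away from the junction (0.02, and 0.061 to 0.0745 without rat 27 of EOM_fiber or rat 15 or 25 of TA_fiber) and by 1.01 ± 0.25 at it (0.0147, and 0.0554 to 0.0652 without rat 25 of EOM_synapse or rat 27 of TA_synapse).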
